A study of Homo sapiens with 10 samples.

Results

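The 34 genes described here belong to the integrated stress response (ISR) and to the stress response of the endoplasmic reticulum (ER). They were chosen by symbol, 34 of the 36687 gene symbols in the deposited tables. They comprise 5 genes of ISR transcription factors, 5 of ISR feedback and effector proteins, 6 of amino acid and one-carbon enzymes, 3 of amino acid transporters, 12 of ER chaperones and folding factors and 3 of ER-associated degradation (ERAD). RNA was sequenced from MDA-MB-231 cells, a triple-negative human breast cancer line of the basal B subtype with a wild-type genotype label, in 10 libraries. Dasatinib, which inhibits SRC family and ABL kinases, was given for 6, 12, 24 or 48 h (2 biological replicates each), and untreated cells stood at 0 h (2 biological replicates). The dose of 100 nM comes from a figure legend of the study, because the labels give none. The 0 h libraries carry the title sham, but list dasatinib as treatment, and were used here as untreated cells. No untreated cells of 6, 12, 24 or 48 h were analysed here, so a difference from 0 h also contains the time in culture. The comparisons with 0 h share the same 2 untreated libraries, and all libraries come from 1 cell line. Whether the replicates were separate cultures is not stated beyond the word biological, so p-values measure the spread between these libraries. Fewer cells of a kind and less RNA per cell cannot be told apart in such bulk samples.

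In the ISR, kinases that sense amino acid shortage, misfolded ER proteins, viral RNA or haem shortage phosphorylate the initiation factor eIF2. Bulk translation slows, while the mRNA of the transcription factor ATF4 is translated more. ATF4 then raises genes for amino acid synthesis, amino acid import and feedback. Misfolded proteins in the ER also act through IRE1 with XBP1 and through ATF6, which raise chaperones, folding enzymes and ERAD genes. ATF4 is controlled largely at translation, so its mRNA level is not a reading of its protein level, and no protein was measured here.

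Promoter sequences are shown because the chaperone genes and the ATF4-linked genes carry different known elements. The windows come from RefSeq (GRCh38.p14), 250 bases before to 50 after each start, and 31 of the 34 genes had an entry (*PSPH*, *SHMT2* and *SLC7A11* are named only). Both strands were searched for 3 motifs. The ER stress response element (ERSE), the site of ATF6 with NF-Y, has the letters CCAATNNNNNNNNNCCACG. ERSE-II is ATTGG and CCACG parted by 1 base, and it shares the CCAAT box (ATTGG on the other strand) and the CCACG box with ERSE. The C/EBP-ATF response element (CARE), read by ATF4 with C/EBP proteins, has the letters TGATGNAA. ERSE was found in 0.0769% of 35116 promoters (0.0916% of 27305 genes), and in 5 of the 12 chaperone genes. Its matches are in capitals in the following windows, with 20 bases on each side, each 5′ to 3′ on the strand of the gene.
HSPA5, chr9:125241371-125241429, - strand: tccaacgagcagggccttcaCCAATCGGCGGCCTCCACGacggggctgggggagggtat
HSP90B1, chr12:103930196-103930254, + strand: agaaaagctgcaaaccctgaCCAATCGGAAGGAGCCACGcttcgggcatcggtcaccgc
HSP90B1, chr12:103930301-103930359, + strand: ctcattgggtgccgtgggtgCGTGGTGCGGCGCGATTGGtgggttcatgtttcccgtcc
PDIA6, chr2:10812833-10812891, - strand: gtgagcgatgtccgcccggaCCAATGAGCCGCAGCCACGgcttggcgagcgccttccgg
CALR, chr19:12938364-12938422, + strand: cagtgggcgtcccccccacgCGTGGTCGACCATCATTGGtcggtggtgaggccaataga
CRELD2, chr22:49918534-49918592, + strand: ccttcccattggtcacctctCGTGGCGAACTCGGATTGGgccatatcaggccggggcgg
ERSE-II was found in 0.0541% of promoters (0.0696% of genes). It lay in 2 chaperone genes and 1 ERAD gene.
HYOU1, chr11:119057254-119057304, - strand: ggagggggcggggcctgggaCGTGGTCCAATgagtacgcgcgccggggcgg
SDF2L1, chr22:21642094-21642144, + strand: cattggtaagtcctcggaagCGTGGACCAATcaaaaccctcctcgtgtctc
HERPUD1, chr16:56932005-56932055, + strand: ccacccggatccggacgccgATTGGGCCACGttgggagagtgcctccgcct
*HYOU1* held another ERSE-II match farther from its start. CARE was found in 3.62% of promoters (4.46% of genes). It lay before the start of *ASNS*, *CHAC1*, *CEBPG* and *HERPUD1* and after the start of *SLC3A2*. Of 6 amino acid genes with an entry 2 held it, and none of the 12 chaperone genes did.
ASNS, chr7:97872449-97872496, - strand: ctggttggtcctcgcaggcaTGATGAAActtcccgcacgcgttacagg
CHAC1, chr15:40953242-40953289, + strand: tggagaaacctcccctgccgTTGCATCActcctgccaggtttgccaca
CEBPG, chr19:33374051-33374098, + strand: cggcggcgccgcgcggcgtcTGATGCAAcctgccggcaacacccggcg
None of the printed matches overlap each other. A match describes letters in this window, and binding was not measured.

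Each library held between 40942913 and 49133774 counts. Levels are given as CPM, the counts of a gene relative to the library total, scaled by TMM (trimmed mean of M values), and differences as log2 fold changes with standard errors (SE) from edgeR's quasi-likelihood test in 1 fit over the 5 groups. A gene is called at a Benjamini-Hochberg adjusted p under 0.05 over the 15727 genes tested. Markers of basal B and mesenchymal cells were high in every library (*VIM* 895 to 1393 CPM, *CD44* 234 to 465 CPM, *AXL* 396 to 1063 CPM, *CAV1* 506 to 1040.4 CPM). Their sum was lower at every treated time. Together these 4 genes held 2949 to 3074 CPM in the 6 h libraries and 2165 to 2271 CPM in the 48 h libraries, against 3826 to 3860 CPM in the 0 h libraries. *CAV1* was called lower from 6 h on, with a log2 fold change of −0.69 there, and *VIM*, *CD44* and *AXL* from 24 h on. At 48 h the log2 fold changes were −0.57 for *VIM*, −0.89 for *CD44*, −1.02 for *AXL* and −0.87 for *CAV1*. Of 7 luminal markers, *PGR* lay at 0, *ESR1* and *CDH1* at or under 0.523 CPM, and *GATA3*, *FOXA1*, *EPCAM* and *CD24* between 3.27 and 19.3 CPM. The sum of the 7 was 50.9 to 51.2 CPM in the 48 h libraries, against 31.3 to 31.4 CPM in the 0 h libraries, and 2 were called higher at 48 h, *CD24* by 2.33 and *FOXA1* by 0.57 on the log2 scale. Of the blood cell markers, *PTPRC* lay at or under 0.363 CPM and *CD3E* at 0. The part of these marker changes in the results was not tested. Replicate 1 at 12 h stood apart. Its highest correlation of log2 CPM with another library was 0.9554, against 0.9831 to 0.9873 for the others, and it held 7.94% of its counts in mRNAs of the mitochondrial genome, against 5.42% in replicate 2 at 12 h. The 48 h libraries held 7.24% and 6.73% there, against 5.72% and 5.07% in the 0 h libraries. The part of these shares in the results was not tested. Values without replicate 1 at 12 h are given beside the genes whose call changed without it. That setting leaves only replicate 2 at 12 h, so for the 12 h comparison only the log2 fold change is given.

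All 34 genes passed the filter on low counts, and 21 of them were called against 0 h at 1 or more times. After 6 h, 5 were higher (14.7%) and 1 was lower (2.94%), beside 1.24% of all genes tested called higher and 1.49% called lower. After 12 h, 2 were higher (5.88%) and 3 lower (8.82%), beside 3.93% and 3.22% of all genes. After 24 h, 3 were higher (8.82%) and 4 lower (11.8%), near the 9.73% and 10.2% of all genes. After 48 h, 11 were higher (32.4%) and 7 lower (20.6%), beside 16.0% and 16.3%. The median log2 fold change of the 34 genes was 0.04 after 6 h, −0.25 after 12 h, 0.03 after 24 h and 0.26 after 48 h, and that of all genes tested lay between 0.001 and 0.021. *PSAT1*, *SLC7A5*, *SLC3A2* and *HSPA5* were called in opposite directions at different times. No gene was called at all 4 times by edgeR. Without replicate 1 at 12 h 9 of the 34 genes were called higher and 5 lower at 6 h, beside 9.89% and 9.47% of the 16555 genes then tested. At 12 h these were 5 and 5, beside 8.26% and 8.61%, at 24 h 9 and 12, beside 19.5% and 20.8%, and at 48 h 16 and 9, beside 24.5% and 26.0%. Calls thus became more frequent over all genes as well as among the 34. Leaving out replicate 2 at 12 h instead raised the calls among the 34 genes at 6, 24 and 48 h to nearly the same numbers. The added calls at these times were therefore not particular to leaving out replicate 1, and their cause was not tested. Over these 4 comparisons and those of 48 h and 24 h with 6 h there were 69 called values, of which 24 were called under each of 18 alternative settings at the same threshold, and none changed direction under any of them. All 69 were called without either 12 h library, and the other libraries whose omission ended a call are named beside each gene for the comparisons with 0 h.

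**Figure D1:**
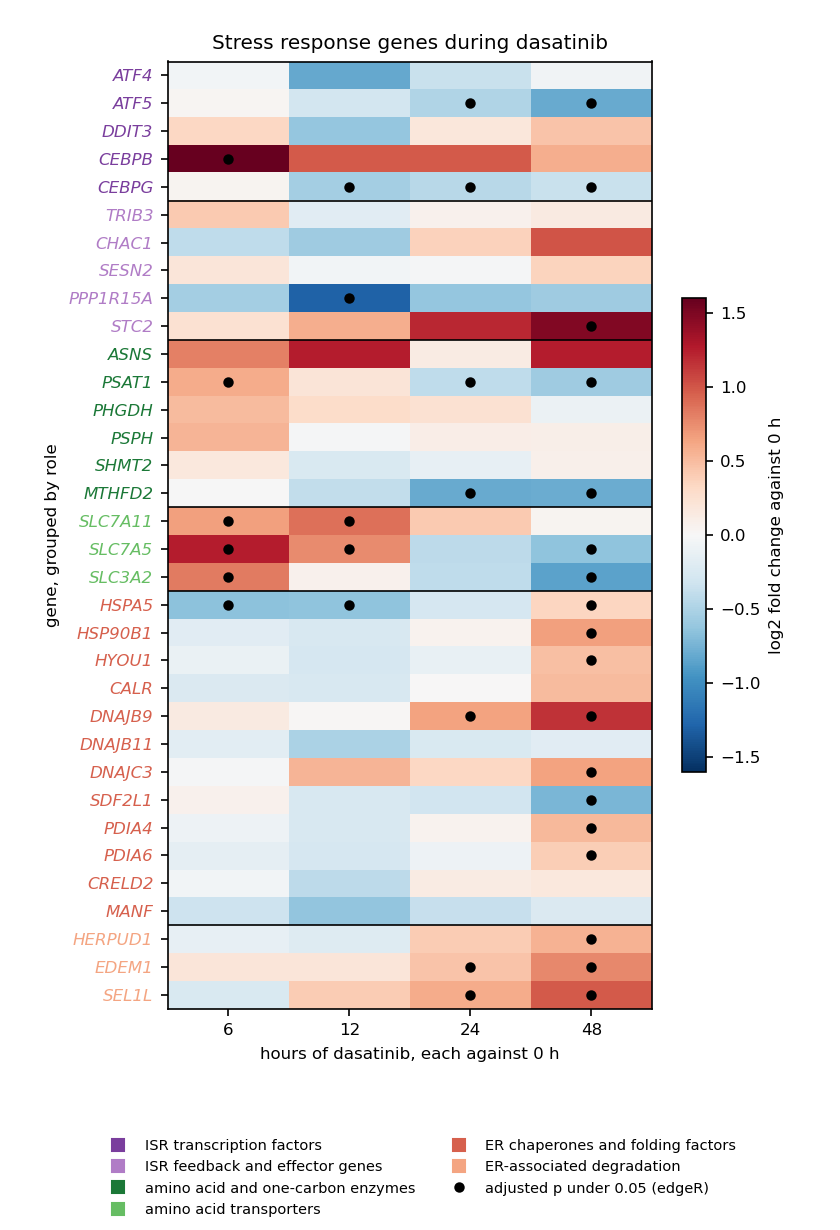
Log2 fold change of the 34 genes (rows, coloured by role) at 6, 12, 24 and 48 h of dasatinib (columns), each against 0 h. Dots mark the called values: the 3 transporters were called higher at 6 h, and 7 of the 12 chaperones and the 3 ERAD genes at 48 h.

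*ATF4* mRNA was not called at any time. *ATF4*, the central transcription factor of the ISR, had 388 and 388 CPM at 0 h, 383 and 369 after 6 h, 149 and 291 after 12 h, 265 and 341 after 24 h and 366 and 381 after 48 h. The values at 6 h and 48 h lay just under those at 0 h, and those at 12 h and 24 h farther under, with replicate 1 at 12 h lowest. Its log2 fold change was −0.05 (SE 0.247, adjusted p = 0.959) after 6 h, −0.82 (SE 0.249, adjusted p = 0.0785) after 12 h, −0.36 (SE 0.248, adjusted p = 0.364) after 24 h and −0.05 (SE 0.247, adjusted p = 0.893) after 48 h by edgeR. Without replicate 1 at 12 h, *ATF4* was called lower after 24 h, with a log2 fold change of −0.36 (SE 0.0856, adjusted p = 0.00129). Its change after 12 h was then −0.41. *DDIT3*, which encodes CHOP, a factor tied to cell death in ER stress, had 5.90 and 5.34 CPM at 0 h, 6.78 and 7.32 after 6 h, 1.07 and 6.22 after 12 h, 5.79 and 6.95 after 24 h and 8.03 and 7.44 after 48 h. The 6 h and 48 h libraries were above both at 0 h, and replicate 1 at 12 h was far below all others. That library held 45 counts of it and the other libraries 233 to 393. The log2 fold change of *DDIT3* was 0.33 (SE 0.538, adjusted p = 0.84) after 6 h and 0.46 (SE 0.537, adjusted p = 0.556) after 48 h, and it was not called at 12 h or 24 h either. Without replicate 1 at 12 h, *DDIT3* was called higher at 48 h, with 0.46 (SE 0.187, adjusted p = 0.0424), and its change at 12 h was 0.15, against −0.62 with both libraries. In the GENCODE annotation 31.6% of its exon bases are shared on the other strand, and 8.03% on the same strand, with *MARS1*, *MBD6* or an unnamed gene model. The counting of such reads is not stated.

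Of the other 3 factors, *CEBPB* was called higher at 6 h, *CEBPG* lower at 12, 24 and 48 h and *ATF5* lower at 24 and 48 h. *CEBPB*, a leucine zipper factor that pairs with ATF4, had 70.3 and 59.1 CPM at 0 h, 194 and 196 after 6 h, 72.1 and 184 after 12 h, 118 and 137 after 24 h and 101 and 92.8 after 48 h. Both 6 h libraries and replicate 2 at 12 h were high, replicate 1 at 12 h lay close to 0 h, and all treated libraries were above both 0 h libraries. Its log2 fold change was 1.59 (SE 0.328, adjusted p = 0.0325) after 6 h and 0.99 (SE 0.323, adjusted p = 0.0973) after 12 h by edgeR, and 1.52 at 12 h without replicate 1. Without that library *CEBPB* was also called higher at 24 h, with 0.98 (SE 0.0866, adjusted p = 5.38e-10), and at 48 h, with 0.58 (SE 0.0865, adjusted p = 2.27e-06). The call at 6 h was lost without any 1 of the 8 libraries at 0, 6, 24 and 48 h (adjusted p up to 0.281). *ATF5*, a factor translated by the same mechanism as ATF4, had 37.8 and 42.4 CPM at 0 h, 36.0 and 46.0 after 6 h, 31.3 and 33.9 after 12 h, 28.8 and 28.9 after 24 h and 23.5 and 22.2 after 48 h. The 0 h and 6 h libraries overlapped, and those at 12, 24 and 48 h lay below both 0 h libraries. In GENCODE 19.5% of the exon bases of *ATF5* are shared on the other strand, and 2.56% on the same strand, with *IL4I1*, *MIR4751* or *NUP62*. *ATF5* fell by 0.81 on the log2 scale at 48 h (SE 0.145, adjusted p = 0.00191 from edgeR), a call kept under each alternative. At 24 h it fell by 0.48 (SE 0.144, adjusted p = 0.0422), a call lost without either 0 h library, either 24 h library or either 48 h library (adjusted p up to 0.24). *CEBPG*, another partner of ATF4, had 68.6 and 67.3 CPM at 0 h, 69.7 and 70.0 after 6 h, 45.5 and 47.5 after 12 h, 50.9 and 48.9 after 24 h and 50.0 and 56.0 after 48 h. Its 6 h values matched those at 0 h closely, and all later ones were below them. The log2 fold change of *CEBPG* was −0.55 (SE 0.108, adjusted p = 0.017) after 12 h, −0.45 (SE 0.108, adjusted p = 0.0159) after 24 h and −0.36 (SE 0.108, adjusted p = 0.0278) after 48 h. These calls were lost without either 0 h library (adjusted p up to 0.145) after 12 h, either 0 h library or either 24 h library (adjusted p up to 0.137) after 24 h and any 1 of the 8 libraries at 0, 6, 24 and 48 h (adjusted p up to 0.215) after 48 h.

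**Figure D2:**
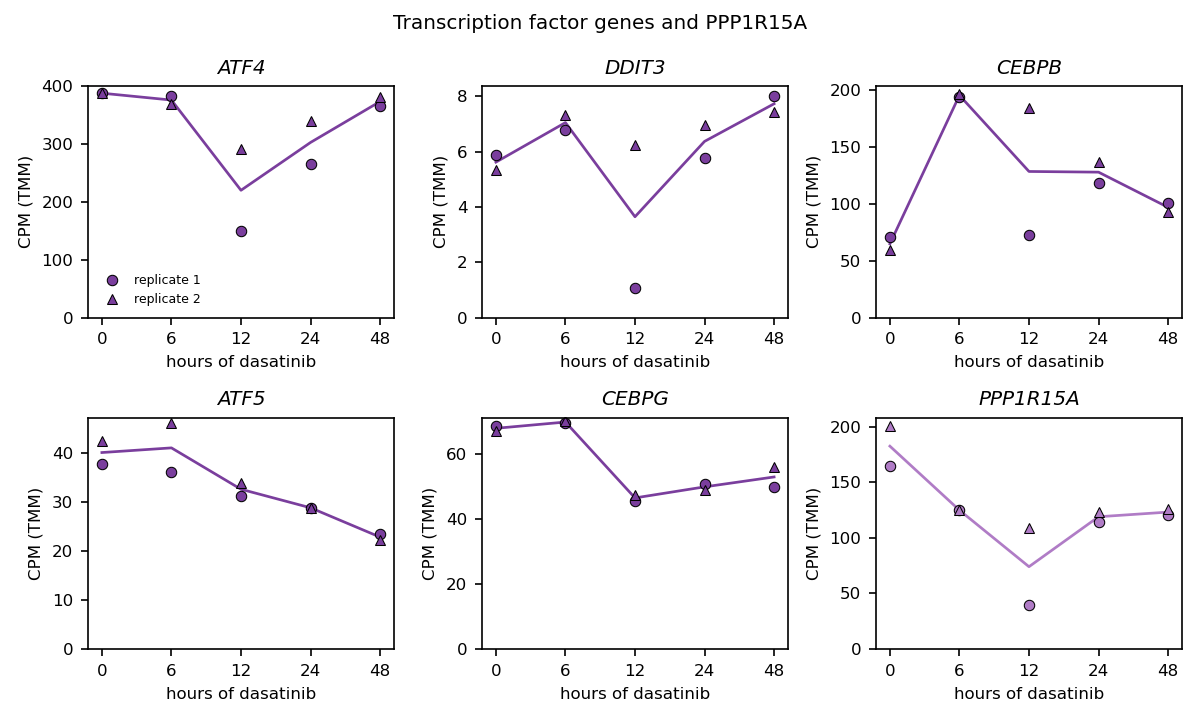
CPM of the 5 transcription factor genes and *PPP1R15A* by hours of dasatinib, with circles for replicate 1, triangles for replicate 2 and lines through the means of 2. Replicate 1 at 12 h is the lowest library for *ATF4*, *DDIT3* and *PPP1R15A* and lies near 0 h for *CEBPB*, while both 6 h libraries of *CEBPB* lie near 195 CPM.

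The 5 feedback and effector genes did not move as a set. *PPP1R15A*, which encodes GADD34, the subunit that brings a phosphatase to eIF2, had 165 and 200.2 CPM at 0 h, 125 and 125 after 6 h, 39.6 and 109 after 12 h, 115 and 123 after 24 h and 120.2 and 126 after 48 h. All 8 treated libraries were below both 0 h libraries. It was called at 12 h, with a log2 fold change of −1.30 (SE 0.342, adjusted p = 0.0487) by edgeR. Replicate 1 was the lower library there, and without it the change at 12 h was −0.74. *PPP1R15A* was then called lower at 6, 24 and 48 h. The call at 12 h was lost without any 1 of the 8 libraries at 0, 6, 24 and 48 h (adjusted p up to 0.247). *STC2*, which encodes a secreted glycoprotein induced by ER stress, had 0.668 and 1.10 CPM at 0 h, 1.11 and 0.985 after 6 h, 1.52 and 1.14 after 12 h, 2.15 and 1.95 after 24 h and 3.06 and 1.88 after 48 h. Both 48 h libraries were above both 0 h libraries, at 83 to 150 counts against 28 and 48. Its log2 fold change at 48 h was 1.48 (SE 0.406, adjusted p = 0.0187), lost without 0 h replicate 1 or 48 h replicate 1 (adjusted p up to 0.167). *CHAC1*, which degrades glutathione, had 7.11 and 7.23 CPM at 0 h, 4.69 and 6.09 after 6 h, 2.62 and 7.01 after 12 h, 8.79 and 9.66 after 24 h and 14.0 and 14.9 after 48 h. The 48 h libraries were the 2 highest, and the change at 48 h, 1.01 (SE 0.35, adjusted p = 0.0504), was not called. It was called there without replicate 1 of 12 h, with 1.01 (SE 0.169, adjusted p = 1.34e-05). *TRIB3*, a pseudokinase that restrains ATF4, ranged between 22.6 and 36.8 CPM, and *SESN2*, which inhibits mTORC1, between 9.60 and 15.6 CPM. Neither was called at any time, but without replicate 1 at 12 h *TRIB3* was called higher at 6 h, with 0.43 (SE 0.111, adjusted p = 0.00648). *STC2* was then also called higher at 24 h, with 1.21 (SE 0.394, adjusted p = 0.0151).

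Among the 6 enzyme genes, *PSAT1* was higher at 6 h and lower at 24 h and 48 h, and *MTHFD2* was lower at 24 h and 48 h. *PSAT1* encodes phosphoserine aminotransferase of the serine synthesis pathway. It had 141 and 141 CPM at 0 h, 209.6 and 217 after 6 h, 157 and 167 after 12 h, 114 and 98.5 after 24 h and 93.8 and 96.5 after 48 h. The 6 h libraries were the 2 highest, and the 24 h and 48 h libraries lay below both at 0 h. For *PSAT1* the log2 fold change was 0.60 (SE 0.107, adjusted p = 0.0176) after 6 h, −0.41 (SE 0.107, adjusted p = 0.0237) after 24 h and −0.57 (SE 0.108, adjusted p = 0.0027) after 48 h by edgeR. The call at 48 h was kept under each alternative. Those at 6 h and 24 h were lost without either 0 h library, either 6 h library or either 48 h library (adjusted p up to 0.2) and without any 1 of the 8 libraries at 0, 6, 24 and 48 h (adjusted p up to 0.241). *MTHFD2* encodes a mitochondrial folate enzyme. It had 84.4 and 92.4 CPM at 0 h, 86.6 and 89.6 after 6 h, 63.7 and 71.2 after 12 h, 52.6 and 48.2 after 24 h and 51.5 and 50.3 after 48 h. The 0 h and 6 h libraries overlapped and the later ones were lower. *MTHFD2* fell by 0.81 on the log2 scale at 24 h (SE 0.113, adjusted p = 0.000984) and by 0.80 at 48 h (SE 0.113, adjusted p = 0.000471), and both calls were kept under each alternative. In GENCODE 14.1% of its exon bases are shared on the other strand with *SLC4A5* or an unnamed gene model. The change of *MTHFD2* at 12 h was −0.31 without replicate 1, against −0.39 with both libraries.

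The other 4 enzyme genes were not called against 0 h. *PHGDH*, the first enzyme of serine synthesis, had 39.7 and 40.8 CPM at 0 h, 53.5 and 60.3 after 6 h, 40.5 and 58.0 after 12 h, 47.2 and 48.1 after 24 h and 39.3 and 36.0 after 48 h. Both 6 h libraries were above both 0 h libraries, and its log2 fold change there was 0.50 (SE 0.163, adjusted p = 0.163). *PSPH*, the last enzyme of that pathway, had 52.8 and 52.7 CPM at 0 h, 78.3 and 75.1 after 6 h, 43.8 and 60.4 after 12 h, 58.0 and 55.9 after 24 h and 55.7 and 57.0 after 48 h. Its values at 6 h were the 2 highest of 10, with a log2 fold change of 0.54 (SE 0.144, adjusted p = 0.0869). Without replicate 1 at 12 h, *PHGDH* and *PSPH* were called higher at 6 h, by 0.51 (SE 0.0925, adjusted p = 0.000238) and 0.55 (SE 0.0813, adjusted p = 1.65e-05). *PHGDH* was then also called higher at 24 h, by 0.24 (SE 0.0926, adjusted p = 0.0372), and its change at 12 h was 0.53. *SHMT2*, a mitochondrial serine hydroxymethyltransferase, ranged between 215 and 387 CPM and overlapped 0 h at every time. *ASNS*, asparagine synthetase, had 0.692 and 0.619 CPM at 0 h, 1.42 and 0.873 after 6 h, 2.21 and 0.920 after 12 h, 0.756 and 0.682 after 24 h and 1.90 and 1.25 after 48 h. That is 27 to 93 counts in a library. The 48 h libraries were above both at 0 h, with a log2 fold change of 1.26 (SE 0.526, adjusted p = 0.0941), and *ASNS* was not called at any time. Without replicate 1 at 12 h, its highest library by CPM, *ASNS* was called higher at 48 h, with 1.26 (SE 0.478, adjusted p = 0.0295). In GENCODE 49.3% of its exon bases are also those of an unnamed gene model on the same strand, and how such reads were counted is not stated, so its low level is uncertain.

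The 3 transporter genes were called higher at 6 h. *SLC7A5* encodes LAT1, which brings in large neutral amino acids. It had 366 and 377 CPM at 0 h, 803 and 969 after 6 h, 673 and 586 after 12 h, 295 and 261 after 24 h and 252 and 221 after 48 h. The 6 h and 12 h libraries were above both 0 h libraries, and the 24 h and 48 h libraries below them. For *SLC7A5* the log2 fold change was 1.26 (SE 0.141, adjusted p = 0.00183) after 6 h, 0.76 (SE 0.14, adjusted p = 0.0122) after 12 h, −0.42 (SE 0.139, adjusted p = 0.062) after 24 h and −0.65 (SE 0.14, adjusted p = 0.00548) after 48 h by edgeR. The call at 6 h was kept under each alternative. The call at 12 h was lost without either 0 h library (adjusted p up to 0.139), and that at 48 h without 48 h replicate 2 (adjusted p up to 0.0672). *SLC3A2* encodes CD98hc, the heavy chain that pairs with LAT1 and with xCT. It had 239.6 and 274 CPM at 0 h, 440.0 and 476 after 6 h, 215 and 322 after 12 h, 191 and 197 after 24 h and 147 and 138 after 48 h. Its order over time was like that of *SLC7A5*, except that replicate 1 at 12 h lay below both 0 h libraries. The log2 fold change of *SLC3A2* was 0.83 (SE 0.171, adjusted p = 0.0322) after 6 h and −0.85 (SE 0.171, adjusted p = 0.00388) after 48 h. The call at 48 h was kept under each alternative, and that at 6 h was lost without any 1 of the 8 libraries at 0, 6, 24 and 48 h (adjusted p up to 0.33). *SLC7A11* encodes xCT, which exchanges cystine for glutamate. It had 188 and 194 CPM at 0 h, 315 and 287 after 6 h, 405 and 299 after 12 h, 253 and 258 after 24 h and 188 and 205 after 48 h. The 6, 12 and 24 h libraries were above both 0 h libraries, and those at 48 h overlapped them. The log2 fold change of *SLC7A11* was 0.66 (SE 0.144, adjusted p = 0.0417) after 6 h and 0.88 (SE 0.144, adjusted p = 0.00675) after 12 h, and 0.65 at 12 h without replicate 1. Without that library the 3 transporters were also called at 24 h, with −0.42 (SE 0.0876, adjusted p = 0.000362) for *SLC7A5*, −0.41 (SE 0.0772, adjusted p = 9.75e-05) for *SLC3A2* and 0.42 (SE 0.073, adjusted p = 3.02e-05) for *SLC7A11*. The change of *SLC3A2* at 12 h was then 0.33. The calls of *SLC7A11* in the fit with all libraries were lost without any 1 of the 8 libraries at 0, 6, 24 and 48 h after 6 h and without either 0 h library after 12 h. With the replicate number as a block its call at 6 h was also lost.

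**Figure D3:**
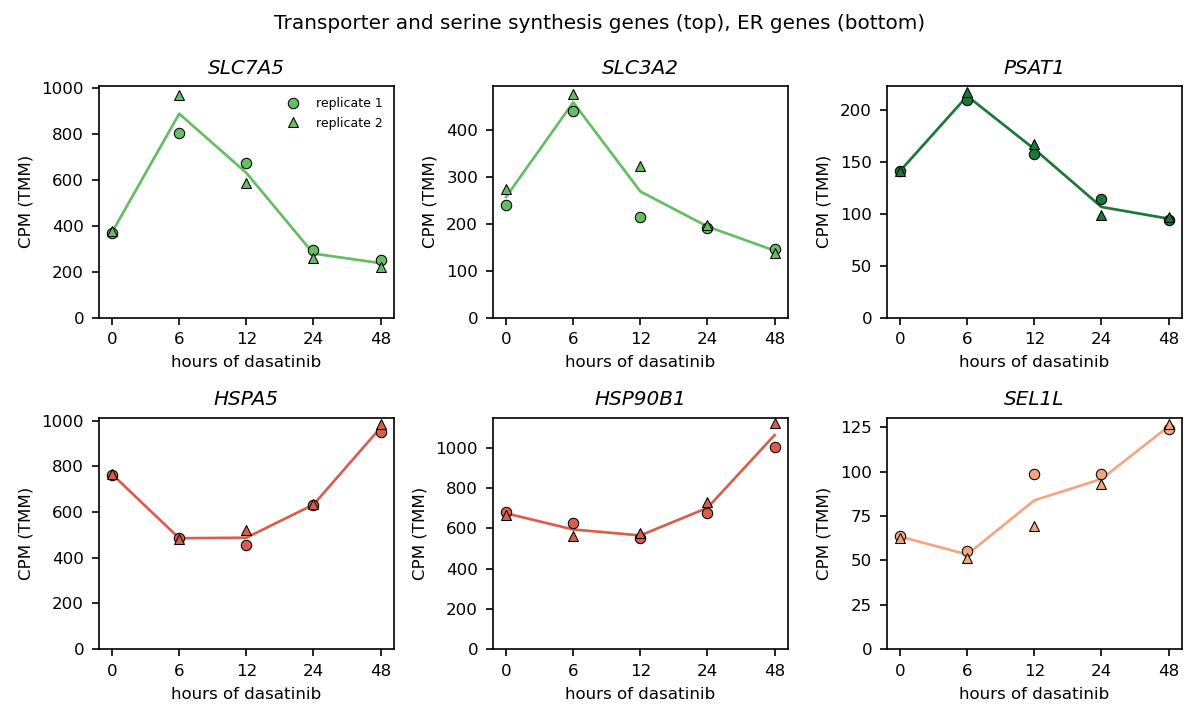
CPM of *SLC7A5*, *SLC3A2*, *PSAT1*, *HSPA5*, *HSP90B1* and *SEL1L* by hours of dasatinib, with circles for replicate 1, triangles for replicate 2 and lines through the means of 2. The 6 h libraries are highest in the upper row and the 48 h libraries highest in the lower row.

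Of the 12 chaperone and folding genes, 7 were called higher at 48 h and 1, *SDF2L1*, lower. *HSPA5* encodes BiP, the main ER chaperone and a brake on the ER stress sensors. It had 763 and 768 CPM at 0 h, 488 and 483 after 6 h, 455 and 520.3 after 12 h, 629 and 635 after 24 h and 952 and 987 after 48 h. The 6, 12 and 24 h libraries were below both 0 h libraries and the 48 h libraries above them. For *HSPA5* the log2 fold change was −0.66 (SE 0.113, adjusted p = 0.0138) after 6 h, −0.65 (SE 0.113, adjusted p = 0.00932) after 12 h, −0.28 (SE 0.113, adjusted p = 0.121) after 24 h and 0.34 (SE 0.113, adjusted p = 0.0419) after 48 h by edgeR. With the replicate number as a block the call at 48 h was lost. The calls were lost without either 0 h library, either 6 h library or either 24 h library (adjusted p up to 0.192) after 6 h, either 0 h library (adjusted p up to 0.0989) after 12 h and any 1 of the 8 libraries at 0, 6, 24 and 48 h (adjusted p up to 0.212) after 48 h. *HSPA5* was also called lower at 24 h when replicate 1 of 12 h was left out, with −0.28 (SE 0.0694, adjusted p = 0.00205). *HSP90B1*, which encodes the chaperone GRP94, had 679.9 and 668 CPM at 0 h, 625 and 563 after 6 h, 552 and 577 after 12 h, 675 and 728 after 24 h and 1004 and 1122 after 48 h. Both 48 h libraries were above all others. Its log2 fold change at 48 h was 0.66 (SE 0.119, adjusted p = 0.00209), kept under each alternative. *DNAJB9*, a co-chaperone of BiP and a target of XBP1, had 13.5 and 14.1 CPM at 0 h, 14.6 and 15.9 after 6 h, 12.4 and 15.5 after 12 h, 20.6 and 22.6 after 24 h and 26.7 and 34.6 after 48 h. Its libraries at 24 h and 48 h were above all earlier ones. The change of *DNAJB9* was 0.65 (SE 0.171, adjusted p = 0.0231) after 24 h and 1.15 (SE 0.171, adjusted p = 0.000649) after 48 h. The call at 48 h was kept under each alternative, and that at 24 h was lost without either 0 h library or either 24 h library (adjusted p up to 0.165).

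*HYOU1*, a large chaperone of the HSP70 family, had 198 and 226 CPM at 0 h, 187 and 208 after 6 h, 152 and 200.3 after 12 h, 195 and 194 after 24 h and 305 and 289 after 48 h. Only the 48 h libraries were above both 0 h libraries. *PDIA4* and *PDIA6* encode disulfide isomerases. *PDIA4* had 257 and 259 CPM at 0 h, 247 and 242 after 6 h, 176 and 255 after 12 h, 257 and 281 after 24 h and 363 and 375 after 48 h. *PDIA6* had 235 and 228 CPM at 0 h, 212 and 208 after 6 h, 174 and 208 after 12 h, 219.8 and 217 after 24 h and 305 and 303 after 48 h. For both genes the 48 h libraries were the 2 highest of 10. *DNAJC3*, which encodes the BiP co-chaperone p58IPK, had 46.8 and 46.3 CPM at 0 h, 45.6 and 46.6 after 6 h, 86.1 and 49.3 after 12 h, 62.9 and 54.5 after 24 h and 75.3 and 70.1 after 48 h. Its highest library was replicate 1 at 12 h, and both 48 h libraries were above both at 0 h. The 12 h change of *DNAJC3* was 0.54 (SE 0.211, adjusted p = 0.15), and 0.09 without replicate 1, when *DNAJC3* was called higher at 24 h, with 0.34 (SE 0.0889, adjusted p = 0.00319). Log2 fold changes at 48 h were 0.49 (SE 0.142, adjusted p = 0.0247) for *HYOU1*, 0.52 (SE 0.157, adjusted p = 0.029) for *PDIA4*, 0.39 (SE 0.111, adjusted p = 0.0217) for *PDIA6* and 0.64 (SE 0.211, adjusted p = 0.0406) for *DNAJC3*. The call of *HYOU1* was lost without either 0 h library, either 24 h library or either 48 h library (adjusted p up to 0.197) and that of *PDIA6* without either 0 h library, either 24 h library or either 48 h library (adjusted p up to 0.155). The call of *PDIA4* was lost without any 1 of the 8 libraries at 0, 6, 24 and 48 h (adjusted p up to 0.151) and that of *DNAJC3* likewise (adjusted p up to 0.175). In GENCODE 25.2% of the exon bases of *PDIA6* are shared with *ATP6V1C2* on the other strand.

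*SDF2L1*, a partner of the DNAJB11 and BiP complex, had 30.5 and 29.9 CPM at 0 h, 29.0 and 34.2 after 6 h, 20.1 and 30.4 after 12 h, 23.3 and 25.4 after 24 h and 20.1 and 16.1 after 48 h. Both 48 h libraries were below both at 0 h, opposite to the other 7 called chaperones. *SDF2L1* fell by 0.74 on the log2 scale at 48 h (SE 0.2, adjusted p = 0.018 from edgeR), lost without either 0 h library or 48 h replicate 2 (adjusted p up to 0.155). The other 4 folding genes were not called against 0 h. *CALR*, the glycoprotein chaperone calreticulin, had 784 and 898 CPM at 0 h, 682 and 747 after 6 h, 554 and 859 after 12 h, 864 and 830.3 after 24 h and 1238 and 1144 after 48 h. Both 48 h libraries were above all others, with a log2 fold change of 0.50 (SE 0.186, adjusted p = 0.0633). At 48 h it was −0.18 for *DNAJB11*, a BiP co-chaperone, 0.17 for *CRELD2* and −0.24 for *MANF*, both secreted factors of ER stress. Without replicate 1 at 12 h, *CALR* was called higher at 48 h, by 0.50 (SE 0.0792, adjusted p = 5.57e-06), and *MANF* lower, at −0.24 (SE 0.0811, adjusted p = 0.0166). At 6 h *CALR* and *MANF*, and at 24 h *MANF*, *DNAJB11* and *SDF2L1*, were then also called lower, by −0.23 (SE 0.0792, adjusted p = 0.0392), −0.33 (SE 0.0813, adjusted p = 0.00483), −0.37 (SE 0.0813, adjusted p = 0.000537), −0.25 (SE 0.0988, adjusted p = 0.0487) and −0.31 (SE 0.119, adjusted p = 0.0374) in this order. Of the 5 genes with an ERSE, *HSPA5*, *HSP90B1* and *PDIA6* were called higher at 48 h and *CALR* and *CRELD2* were not called. Of the 3 with an ERSE-II, *HYOU1* and *HERPUD1* were called higher and *SDF2L1* lower. Of the chaperones with neither motif, *DNAJB9*, *DNAJC3* and *PDIA4* were called higher at 48 h and *DNAJB11* and *MANF* were not called. Of all genes tested, 16.0% were called higher and 16.3% lower at 48 h. A tie between motif and change was not tested.

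The 3 ERAD genes were called higher at 48 h, and 2 of them at 24 h. *SEL1L* encodes the adaptor of the HRD1 ubiquitin ligase. It had 63.9 and 62.9 CPM at 0 h, 55.5 and 51.2 after 6 h, 98.5 and 69.3 after 12 h, 98.9 and 92.9 after 24 h and 124 and 127 after 48 h. The 6 h libraries were below both 0 h libraries, and all later ones above them, with replicate 1 at 12 h close to the 24 h values. For *SEL1L* the log2 fold change was 0.60 (SE 0.152, adjusted p = 0.0197) after 24 h and 0.99 (SE 0.152, adjusted p = 0.000815) after 48 h by edgeR. *EDEM1*, a lectin that hands misfolded glycoproteins to ERAD, had 99.1 and 100.3 CPM at 0 h, 118 and 111 after 6 h, 111 and 117 after 12 h, 135 and 138 after 24 h and 166 and 172 after 48 h. All treated libraries were above both 0 h libraries, and those at 48 h were highest. The change of *EDEM1* was 0.46 (SE 0.0977, adjusted p = 0.00882) after 24 h and 0.76 (SE 0.098, adjusted p = 0.000265) after 48 h. For *SEL1L* and *EDEM1* the calls at 48 h were kept under each alternative, and those at 24 h were lost without either 0 h or either 24 h library (adjusted p up to 0.124 for *SEL1L* and 0.0912 for *EDEM1*). *HERPUD1*, a membrane protein of the HRD1 complex, had 74.0 and 66.1 CPM at 0 h, 65.7 and 62.7 after 6 h, 49.9 and 71.8 after 12 h, 92.2 and 94.2 after 24 h and 98.7 and 107 after 48 h. The 24 h and 48 h libraries were above both 0 h libraries. When replicate 1 of 12 h was left out, *HERPUD1* was called higher at 24 h, with 0.41 (SE 0.0804, adjusted p = 0.000139), *EDEM1* higher at 6 h, with 0.20 (SE 0.0719, adjusted p = 0.0478), and *SEL1L* lower at 6 h, with −0.25 (SE 0.0784, adjusted p = 0.0267). For *HERPUD1* the log2 fold change at 48 h was 0.55 (SE 0.158, adjusted p = 0.0228), lost without either 0 h library or either 48 h library (adjusted p up to 0.174).

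Calls among the amino acid genes were higher early and lower late, and those among the chaperones were mostly higher late. Of the 9 amino acid genes (6 enzymes and 3 transporters), 4 were called higher at 6 h and 4 lower at 48 h. Of the 12 chaperones, 1 was called lower at 6 h, and 7 were called higher and 1 lower at 48 h. Of all genes tested, 1.24% were called higher and 1.49% lower at 6 h, and 16.0% and 16.3% at 48 h. The log2 fold change was positive at 6 h and negative at 48 h for 4 of the 9 amino acid genes, and negative at 6 h and positive at 48 h for 8 of the 12 chaperones. Of these chaperones only *HSPA5* was called at 6 h. The share of all genes with such a switch was not computed. The median log2 fold change of the amino acid genes minus that of the chaperones was 0.72 after 6 h, 0.47 after 12 h, −0.09 after 24 h and −0.53 after 48 h. By library, with each gene set against its 0 h mean, the difference was 0.69 and 0.71 after 6 h, 0.58 and 0.38 after 12 h, −0.03 and −0.10 after 24 h and −0.48 and −0.58 after 48 h. The 2 libraries of each time had the same sign. At 6 h the medians were 0.60 for the amino acid genes and −0.12 for the chaperones, and at 48 h they were −0.10 and 0.44, beside 0.01 for all genes tested at both times. At 48 h the median was −0.65 for the transporters and −0.01 for the enzymes, a difference that was not tested. Replicate 1 at 12 h had a chaperone median of −0.57, against −0.05 in replicate 2.

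**Figure D4:**
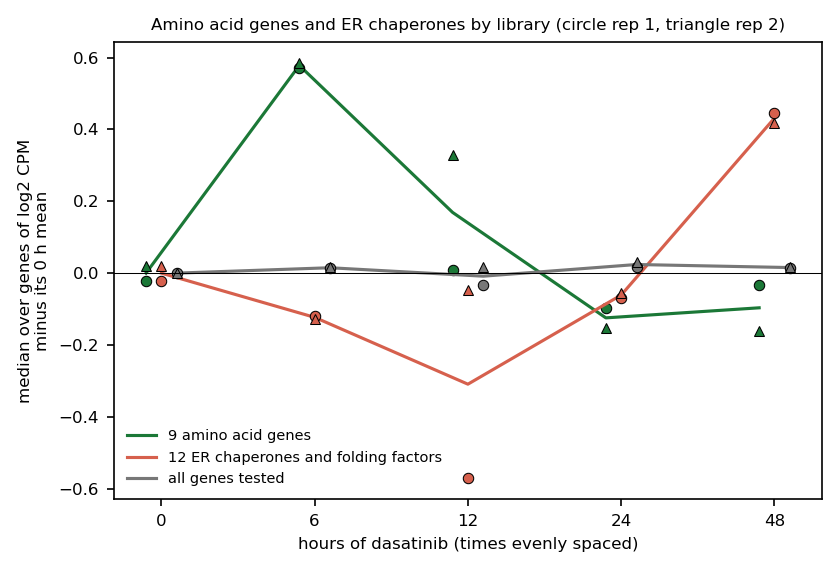
Median change of the 9 amino acid genes, the 12 ER chaperones and all genes tested, as log2 CPM minus the 0 h mean of each gene, by hours of dasatinib (times evenly spaced, lists set slightly apart), with 1 point per library and lines through the means of 2. At 6 h the amino acid genes lie at 0.57 and 0.58 and the chaperones at −0.12 and −0.13, and at 48 h the amino acid genes lie at −0.03 and −0.16 and the chaperones at 0.45 and 0.42.

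Levels were also summed over each list. The 9 amino acid genes together held 1412 and 1518 CPM at 0 h, 2328 and 2562 CPM after 6 h, 1815 and 1894 CPM after 12 h, 1314 and 1258 CPM after 24 h and 1182 and 1137 CPM after 48 h. The 12 chaperones held 3153 and 3296 CPM at 0 h, 2660 and 2675 CPM after 6 h, 2248 and 2854 CPM after 12 h, 3068 and 3125 CPM after 24 h and 4425 and 4479 CPM after 48 h. The 6 h libraries were highest for the amino acid genes, and the 48 h libraries for the chaperones. The most abundant members weigh most in these sums. In the first list these were *SLC7A5* and *SHMT2* at 0 h and *SLC7A5* and *SLC3A2* at 6 h, and in the second *CALR*, *HSPA5* and *HSP90B1*. Per length, in the deposited TPM, *CALR* (980.3 and 1139.7 TPM), *HSPA5* (659.7 and 674 TPM), *ATF4* (524 and 531 TPM) and *HSP90B1* (491.2 and 490.3 TPM) were the highest of the 34 genes at 0 h. *ASNS* (0.480 and 0.436 TPM) and *STC2* (0.370 and 0.619 TPM) were the lowest. At 0 h the 4 highest genes did not overlap each other in TPM, while *ASNS* and *STC2* did.

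The late and early times were also compared directly, so that the levels at 0 h do not enter the difference. At 48 h against 6 h, 13 of the 34 genes were called higher and 11 lower, beside 16.2% and 17.0% of all genes tested. Of the 9 amino acid genes 7 were called lower, with a median log2 fold change of −0.62. Of the 12 chaperones 8 were called higher and 1 lower, with a median of 0.59, and the 3 ERAD genes were called higher. *SLC7A5* had 252 and 221 CPM after 48 h and 803 and 969 after 6 h, a log2 fold change of −1.91 (SE 0.144, adjusted p = 1.4e-05) by edgeR. *SLC3A2* had −1.69 and *PSAT1* −1.16. These were the 3 lowest of the 34. *HSPA5* had 952 and 987 CPM after 48 h and 488 and 483 after 6 h, a log2 fold change of 1.00 (SE 0.114, adjusted p = 0.000128), and *SEL1L* had 1.24 (SE 0.153, adjusted p = 0.000209). The calls of these 5 genes were kept under each alternative. At 24 h against 6 h, 3 genes were called higher and 6 lower, beside 9.0% and 9.65% of all genes, and 4 of the 9 amino acid genes were among the lower ones. The calls of *PSAT1*, *MTHFD2*, *SLC7A5* and *SLC3A2* at 24 h against 6 h were kept with any library left out. Those of *HSPA5* and *HERPUD1* were lost without any 1 of the 8 libraries at 0, 6, 24 and 48 h (adjusted p up to 0.232). The call of *ATF5* was lost without either 0 h library, 6 h replicate 2, either 24 h library or either 48 h library (adjusted p up to 0.321), that of *CEBPG* without either 6 h library or either 24 h library (adjusted p up to 0.108) and that of *SEL1L* without 6 h replicate 2 (adjusted p up to 0.0522).

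**Figure D5:**
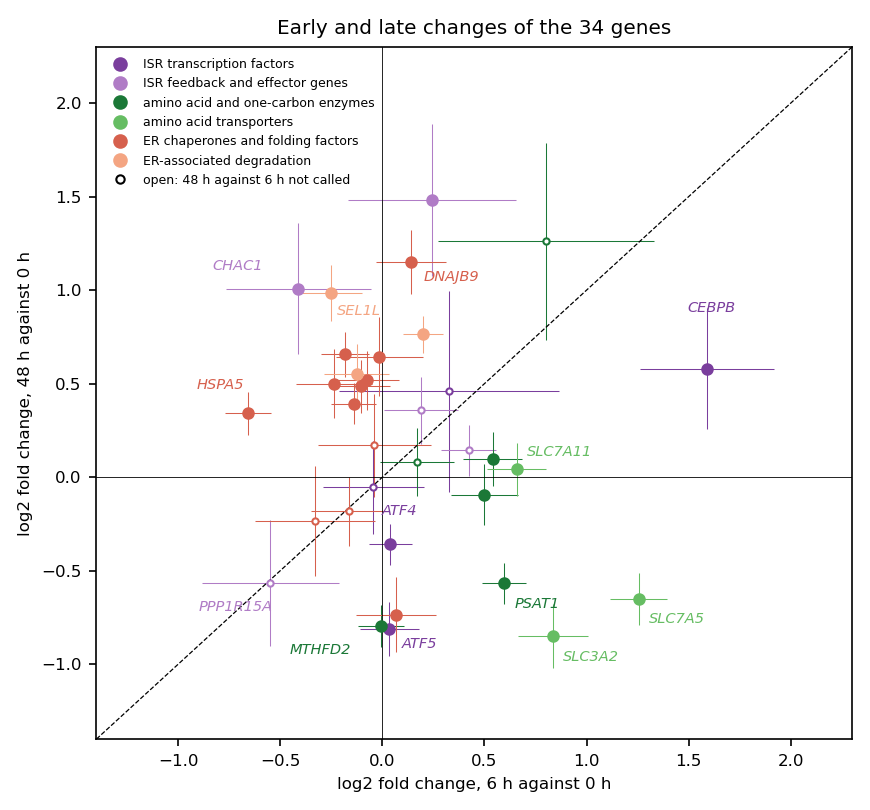
Log2 fold change against 0 h of the 34 genes at 48 h (vertical axis) and at 6 h (horizontal axis), coloured by role, with SE as bars and the line of equal change dashed. Filled points were called at 48 h against 6 h (13 higher, above the line, and 11 lower, below it), and open points were not.

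Other genes of the pathways numbered 124, of which 122 were tested. Some of them, in the ATF4-linked list, were added after their values were seen. They were called 3 higher and 1 lower at 6 h, 5 and 6 after 12 h, 13 and 19 after 24 h and 30 and 22 after 48 h. These are 2.46% and 0.82% of the 122 genes at 6 h, 4.1% and 4.92% after 12 h, 10.7% and 15.6% after 24 h and 24.6% and 18% after 48 h, against 1.24% and 1.49%, 3.93% and 3.22%, 9.73% and 10.2%, and 16.0% and 16.3% of all genes tested at the same times. The shares of higher genes at 12 h and 24 h and of lower genes at 48 h lay near the shares of all genes. The smaller lists that follow are read against the same shares. Among 20 sensor and eIF2 genes, 5 were higher and 5 lower at 48 h. *XBP1*, whose mRNA is spliced by IRE1, had 139.9 and 141 CPM at 0 h, 128 and 121 after 6 h, 143 and 145 after 12 h, 182 and 187 after 24 h and 222 and 223 after 48 h. Its 24 h and 48 h libraries were above all others, with log2 fold changes of 0.39 (SE 0.0958, adjusted p = 0.0168) and 0.66 (SE 0.096, adjusted p = 0.000563) by edgeR. At 48 h the change was 0.65 (SE 0.154, adjusted p = 0.00953) for *ERN1*, which encodes IRE1, 0.65 (SE 0.12, adjusted p = 0.00247) for *EIF2AK3*, which encodes the ER kinase PERK, and 0.83 (SE 0.0966, adjusted p = 0.000146) for *MBTPS1*, a protease that cleaves ATF6. *ATF6*, at 0.31 (SE 0.158, adjusted p = 0.165), and *EIF2AK4*, which encodes the amino acid sensor GCN2, at −0.36 (SE 0.137, adjusted p = 0.0701), were not called. *EIF2S1*, the eIF2 subunit that these kinases phosphorylate, had −0.85 and *EIF2B1*, a subunit of its exchange factor, −0.81, both called lower.

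Among 17 cytosolic tRNA synthetases, 9 were called lower at 24 h (52.9%, beside 10.2% of all genes). At 48 h 8 were lower (47.1%) and 1 higher (5.88%), beside 16.3% and 16.0% of all genes. Their median log2 fold change was −0.44 after 24 h and −0.23 after 48 h. *KARS1*, *VARS1* and *TARS1*, which charge lysine, valine and threonine tRNAs, had −0.92, −1.10 and −0.36 after 48 h. Among 26 other ATF4-linked genes tested, 10 were higher (38.5%) and 5 lower (19.2%) at 48 h, beside 16.0% and 16.3% of all genes. The lower share lay near that of all genes. The amino acid and one-carbon genes of this list were added after their values were seen. *DDIT4*, an inhibitor of mTORC1, had 15.2 and 18.5 CPM at 0 h, 109.7 and 112 after 6 h, 72.6 and 108 after 12 h, 97.6 and 118 after 24 h and 78.5 and 71.2 after 48 h. All treated libraries were above both at 0 h, and the log2 fold change of *DDIT4* at 48 h was 2.15 (SE 0.194, adjusted p = 3.63e-05). *KLHL24*, an adaptor of a ubiquitin ligase, had 0.72 after 6 h and 2.57 (SE 0.235, adjusted p = 3.85e-05) after 48 h, and *TNFRSF10B*, the death receptor DR5, 0.01 and 1.31 (SE 0.12, adjusted p = 3.91e-05). *ATF3*, a stress-induced factor, was called lower at 12 h, with a log2 fold change of −2.07 (SE 0.312, adjusted p = 0.00497), and had 11.8 and 12.9 CPM at 0 h, 6.53 and 6.22 after 6 h, 2.09 and 3.79 after 12 h, 5.43 and 9.27 after 24 h and 7.58 and 8.12 after 48 h. All treated libraries of *ATF3* were below both at 0 h.

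Among 24 other folding and glycan control genes, 8 were higher and 1 lower at 48 h, with a median of 0.35. The disulfide oxidase gene *ERO1B* had 1.26 (SE 0.137, adjusted p = 0.000103), the prolyl isomerase gene *FKBP14* 1.10 (SE 0.191, adjusted p = 0.00162) and *CRELD1*, at 1.17 to 4.63 CPM, 1.80 (SE 0.352, adjusted p = 0.00325). Among 20 translocation genes, 2 were higher (10%) and 1 lower (5%) after 48 h, both under the 16.0% and 16.3% of all genes, with *KDELR3*, a receptor that returns chaperones to the ER, at 1.27, *SEC61G*, a channel subunit, at 0.73 and *SSR3* at −0.64. Among 15 other ERAD genes tested, 4 were higher and 2 lower. *ERLEC1*, an ER lectin, had 0.83, *WFS1* 0.79 and *UFD1*, a cofactor of the VCP segregase, −0.61.

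The genes whose log2 CPM was most like that of *ATF4* over the 10 libraries were *WDR45B* (Pearson r = 0.993), *BTN2A1* (0.977), *GAS5* (0.97), *CSNK1E* (0.969) and *RARA* (0.964). The libraries share the time course, and the likeness leans on replicate 1 at 12 h. Over the 9 other libraries r was 0.968 for *WDR45B* and between 0.803 and 0.879 for the other 4. Of the other 33 members, *DNAJB11* (0.933), *PPP1R15A* (0.922), *MANF* (0.907) and *DDIT3* (0.903) had the highest r with *ATF4*, and over 9 libraries these were 0.637, 0.587, 0.44 and 0.267. The 9 amino acid genes ranged between −0.718 for *SLC7A11* and 0.848 for *SHMT2* over the 10 libraries. Without replicate 1 at 12 h they ranged between −0.41 for *SLC7A11* and 0.399 for *MTHFD2*. *SLC7A5*, *SLC3A2* and *PSAT1* lay between these, at −0.244, 0.138 and −0.085 over 10 libraries and 0.083, 0.103 and 0.124 over 9. These values describe the libraries and were not tested.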

How the data were processed

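RNA of 10 libraries was prepared with TRIzol and RNeasy columns and NEBNext Ultra kits and sequenced as paired ends on an Illumina NovaSeq instrument. Per the methods of the study and the submitters' processing notes, the authors used Trim Galore for trimming, STAR 2.5.2b for alignment (build hg38) and featureCounts for counting. The deposited counts are raw read counts per gene symbol. The TPM values deposited by the authors are scaled to gene length and library. The step to TPM, the gene annotation and the strand setting are not given in the sources used here. Samples were grouped by hours of dasatinib from the labels.

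Counts were tested with edgeR 4.0.16 (R 4.3.3): filterByExpr by group kept 15727 of 36687 genes, followed by TMM scaling, robust dispersions and 1 quasi-likelihood fit over 5 groups with 5 residual degrees of freedom. P-values were adjusted by Benjamini-Hochberg over all genes tested in each comparison, at a threshold of 0.05. SE is the log2 fold change divided by the root of F. The procedure was tested on simulated data. Alternatives were RLE size factors, no filter, the replicate number as a block, the 2 groups alone, each library left out, DESeq2 1.42.0, limma 3.58.1 on log2(TPM + 1) or log2(TPM + 0.1) for genes of at least 1 TPM in 2 libraries, limma with no filter, and a threshold of 0.01. Alternatives for the other pathway genes were added after seeing the data.

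The genes and lists were chosen with earlier results of these data known, and the marker lists (basal B and mesenchymal, luminal and immune genes) served only to check the cells. Full values were given for genes called against 0 h at 1 or more times where neither treated library overlapped 0 h, and for *ATF4*, *DDIT3*, *ASNS* and *HSPA5*. The values by library of the uncalled genes *CHAC1*, *PHGDH*, *PSPH* and *CALR* and of *DDIT4* were added after their values were seen. Of each list of other pathway genes the up to 3 with the smallest adjusted p at 48 h were named, with *XBP1*, *ERN1*, *EIF2AK3*, *EIF2AK4*, *ATF6* and *ATF3*. The amino acid and one-carbon genes named in the ATF4-linked list were added after their values were seen. Exon overlaps were taken from GENCODE, which may differ from the annotation used for counting.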

Additional observations from a re-analysis of the deposited data

Results flagged for a closer look

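For 24 of the 34 genes the effect of dasatinib at 48 h differed from that at 6 h by a test of the difference itself (48 h against 6 h, edgeR, adjusted p under 0.05). In that comparison 16.2% of all genes tested were called higher and 17.0% lower. Each gene is given with its log2 fold change and adjusted p. Among the amino acid genes the lower ones at 48 h were *SLC7A5* (−1.91, 1.4e-05), *SLC3A2* (−1.69, 7.24e-05), *PSAT1* (−1.16, 4.05e-05), *MTHFD2* (−0.79, 0.000483), *SLC7A11* (−0.62, 0.0082), *PHGDH* (−0.60, 0.018) and *PSPH* (−0.45, 0.0367). The other lower genes were *CEBPB* (−1.01, 0.0352), *ATF5* (−0.85, 0.0015), *SDF2L1* (−0.80, 0.0114) and *CEBPG* (−0.40, 0.0168). Among the chaperones the higher ones were *DNAJB9* (1.01, 0.00138), *HSPA5* (1.00, 0.000128), *HSP90B1* (0.84, 0.000482), *CALR* (0.74, 0.0121), *DNAJC3* (0.66, 0.0362), *PDIA4* (0.60, 0.0151), *HYOU1* (0.59, 0.00974) and *PDIA6* (0.53, 0.00461), and outside them *CHAC1* (1.42, 0.0117), *STC2* (1.24, 0.0376), *SEL1L* (1.24, 0.000209), *HERPUD1* (0.68, 0.00834) and *EDEM1* (0.56, 0.00157). Of these 24 differences, 10 were called under each alternative, those of *ATF5*, *DNAJB9*, *EDEM1*, *HSP90B1*, *HSPA5*, *MTHFD2*, *PSAT1*, *SEL1L*, *SLC3A2* and *SLC7A5*. The other 14 were lost with 1 library left out. *CEBPB*, *PSPH* and *DNAJC3* were lost without any 1 of the 8 libraries at 0, 6, 24 and 48 h, with an adjusted p up to 0.185, 0.171 and 0.161. *CEBPG* was lost without either 6 h library or 48 h replicate 1, with an adjusted p up to 0.154. *CHAC1* was lost without 6 h replicate 1 or either 48 h library, with an adjusted p up to 0.103. *STC2* was lost without either 6 h library, either 24 h library or 48 h replicate 1, with an adjusted p up to 0.277. *PHGDH* was lost without 6 h replicate 2 or either 48 h library, with an adjusted p up to 0.14. *SLC7A11* and *HYOU1* were lost without 6 h replicate 1 or 48 h replicate 1, with an adjusted p up to 0.0751 and 0.102. *CALR* and *PDIA4* were lost without either 6 h library or either 48 h library, with an adjusted p up to 0.102 and 0.102. *SDF2L1* was lost without 6 h replicate 2 or 48 h replicate 2, with an adjusted p up to 0.12. *PDIA6* was lost without 6 h replicate 2, with an adjusted p up to 0.0519. *HERPUD1* was lost without either 6 h library or 48 h replicate 2, with an adjusted p up to 0.075. Untreated cells of 6 h and 48 h were not analysed here, so time in culture and the drug cannot be told apart in these differences. The 2 libraries of each time are too few for a test of single libraries that stand apart.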

How the results depend on the processing

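All 69 called values of the 34 genes kept their direction under the 18 alternative settings. DESeq2, RLE size factors and leaving out either 12 h library kept every one of these calls. No filter lost 3 calls, the 2 groups alone 5, limma 12 with either pseudocount and 20 with no filter, and leaving out 1 library at 0, 6, 24 or 48 h lost 25 to 31. The cause was not tested. Of the 34 genes, 6 were called at 6 h (1 to 14 with a library left out), and 13 with the 2 groups alone, 3 by limma with no filter and 1 at the 0.01 threshold. At 12 h 5 were called (0 to 26 with a library left out), and 10 with no filter, 0 with the 2 groups alone by edgeR (6 at an unadjusted p under 0.05), 8 by DESeq2, 3 by limma with no filter and 2 at 0.01. Without 0 h replicate 1 or 0 h replicate 2 edgeR called 0 at 12 h (9 and 7 at an unadjusted p under 0.05). At 24 h 7 were called (1 to 21), and 13 with no filter, 20 with the 2 groups alone, 11 by DESeq2, 3 by limma with no filter and 2 at 0.01. At 48 h 18 were called (9 to 25), and 9 at 0.01. At 48 h against 6 h 24 were called (13 to 25), and 14 at 0.01. At 24 h against 6 h 9 were called (4 to 24), and 24 with the 2 groups alone and 5 at 0.01. Of the other pathway genes 4 were called at 6 h (1 to 29), and 12 with no filter, 30 with the 2 groups alone, 10 by DESeq2, 1 by each limma setting and 1 at 0.01. At 12 h 11 were called (3 to 74), and 21 with no filter, 0 with the 2 groups alone by edgeR (11 at an unadjusted p under 0.05), 18 by DESeq2, 4 by limma with no filter and 3 at 0.01. At 24 h 32 were called (14 to 81), and 76 with the 2 groups alone. At 48 h 52 were called (28 to 87), and 89 with the 2 groups alone and 30 at 0.01. The amino acid minus chaperone median with a library left out ranged between 0.69 and 0.75 (6 h), 0.37 and 0.58 (12 h), −0.15 and −0.03 (24 h) and −0.58 and −0.48 (48 h), and 0.65 at 6 h by limma on log2(TPM + 1), with and without the filter. Replicate numbers were not used as pairs in the main fit. The deviations of same-numbered libraries correlated at −0.281 to 0.336 between groups over 10893 genes, which does not settle whether they were paired. Library names end in C for replicate 1 and D for replicate 2 at every time, and a shared origin is not stated. With the replicate block 5, 6, 7 and 18 genes were called at 6, 12, 24 and 48 h, 24 at 48 h against 6 h and 9 at 24 h against 6 h. The block lost 3 calls, *HSPA5* at 48 h, *HSPA5* at 24 h against 6 h and *SLC7A11* at 6 h. With 2 libraries a group, and 27 to 93 counts of *ASNS* and 28 to 150 of *STC2* in a library the precision for these genes is limited, and how small a change could be called was not tested.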
